A study of Mus musculus with 148 samples.

Results

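Conventional type 1 dendritic cells (cDC1) were described in a single-cell RNA sequencing atlas of mouse breast cancer and its lung metastases. The cells were the wells to which the study's clustering gave the dendritic cell label cDC1, and they numbered 254 of 23425 annotated immune cells, or 254 of 943 dendritic cells (DCs). The other DC labels were cDC2 with 499 cells, migratory DC (migDC) with 117 and plasmacytoid DC (pDC) with 73. EO771-tdTomato breast carcinoma cells, which carry a red fluorescent protein, had been injected into a mammary gland of 8-week-old female C57BL/6 mice that express photoactivatable GFP (PA-GFP), and tumors were resected after 3 weeks. All groups shared the PA-GFP strain. Control lungs carried the status Normal in the labels (3 mice), Pre-MET lungs came from mice with a primary tumor and no metastases (3 mice), and relapse-free lungs came from mice in which no metastases were found (6 mice). Primary tumors were sampled from 4 mice, of which mice 8, 9 and 10 were the Pre-MET mice. In mice with lung metastases, lung sections gave distal normal tissue (14 mice) and metastases (13 mice), and niches that had been marked by light gave the metastasis core (13 mice) and the invasive margin (7 mice). Cells were sorted as CD31-negative CD45+ cells, or as CD31-negative photoactivated cells in core and margin, with doublets gated out, so that core and margin differ from the other tissues in the gate as well as in the place. Some plates of the relapse-free mice 6 and 7 were also gated on GFP, and the core of mouse 17 was gated as GFP-positive CD45+ cells, unlike the other cores and the margins. A sample below is 1 tissue of 1 mouse. The model is 1 cell line in 1 strain.

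DCs take up antigen, carry it to lymphoid tissue and present it to T cells. The cDC1 lineage depends on the transcription factors IRF8 and BATF3, and is known for moving antigen from dead cells onto MHC class I and so activating CD8 T cells, a task called cross-presentation. XCR1, the receptor of the chemokine XCL1 from NK and CD8 T cells, and CLEC9A, which binds actin filaments exposed by dead cells, define the lineage. The cDC2 lineage mainly serves CD4 T cells, migDCs are mature DCs that have turned on CCR7 to move to lymph nodes, and pDCs are producers of type I interferon.

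Each well held raw counts of unique molecular identifiers (UMIs), each UMI standing for 1 captured mRNA molecule, and levels below are counts per 1000000 UMIs (CPM) after pooling the cells named. A molecule is counted once whatever its length, so levels were not scaled by gene length. The 254 cells held 702464 UMIs in total. The median cell held 1533.5 UMIs and 639.5 genes, with a range of 506 to 38934 UMIs. By tissue the median ranged from 1036 UMIs in distal normal tissue to 11929.5 in primary tumors. The median was 1584 UMIs for cDC2, 2001 for migDC and 2023 for pDC. No sample held more than 34 of the cells, and 56 of the 63 samples held any. No well identifier occurred more than once among the annotated wells.

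The label was checked against 20 cDC1 marker genes. Xcr1 gave 55 UMIs in the cDC1 cells, or 78.3 CPM, against 4.35 CPM in cDC2, 5.03 in migDC and 0 in pDC. Clec9a gave 85 UMIs, or 121 CPM, against 19.9 in cDC2, 0 in migDC and 54.8 in pDC. Both defining genes were therefore highest in the labelled cells, but few cells showed them. A UMI of Xcr1 or Clec9a was found in 47 of the 254 cells (18.5%, exact binomial 95% interval 13.9 to 23.8%), in 17 of 499 cDC2 cells (3.41%), in 8 of 73 pDCs (11.0%) and in 2 of 117 migDCs (1.71%). After each cell was thinned to 500 UMIs, the share was 5.12% in cDC1, 1.80% in cDC2, 4.11% in pDC and 0.855% in migDC. Cells that should lack both genes gave 0.0991% in naive-type CD4 T cells labelled CD4 Lef1 and 0.0948% in B cells at the same depth. Intervals cover counting error only.

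All 20 marker genes had a higher pooled level in cDC1 than in cDC2, with a median log2 ratio of 1.94 on the log2(CPM + 10) scale, against a median of -0.02 over the 15015 genes detected. Within tissues, 10 were higher and 7 lower in metastasis core, 14 and 0 in Pre-MET lung, and 16 to 19 and 1 to 3 in the others. The pools also mix tissues unequally, since primary tumors gave 762388 of 1607981 UMIs in cDC2 but 161443 of 702464 in cDC1. The label was made by clustering these same cells on their expression, so differences between labels are a description and were not tested. Naaa, a lysosomal lipid hydrolase, was at 720 CPM in cDC1 and 320 in cDC2, and no UMI of it was found in migDC. Irf8 was at 700 CPM in cDC1, 151 in cDC2, 949 in migDC and 1690 in pDC, where this factor is also required. Batf3 was at 263 CPM in cDC1, 64.7 in cDC2, 209 in migDC and 0 in pDC. The pDC label thus exceeded cDC1 in Irf8. Among the less abundant markers, Wdfy4, which is needed for cross-presentation, was at 379 CPM in cDC1, 91.4 in cDC2 and 7.55 in migDC. Cadm1, an adhesion molecule used to sort cDC1 across species, was at 88.3 CPM in cDC1 and 6.22 in cDC2. Tlr3, a sensor of double-stranded RNA, was at 78.3 CPM in cDC1 and 9.95 in cDC2. Id2 was at 1312 CPM in cDC1 and 545 in cDC2, Ifi205 at 317 and 287, and Tlr11 at 22.8 and 9.33. Itgae, the CD103 integrin chain of tissue cDC1, was at 192 CPM in cDC1 and 29.9 in cDC2, Rab7b at 194 and 24.9, Gcsam at 159 and 11.2, Plet1 at 128 and 124, Snx22 at 71.2 and 4.35 and Gpr33 at 27.0 and 6.84. Cd8a, which marks cDC1 of lymphoid organs rather than of lung, was at 15.7 CPM in cDC1 and 14.3 in cDC2.

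**Figure D1:**
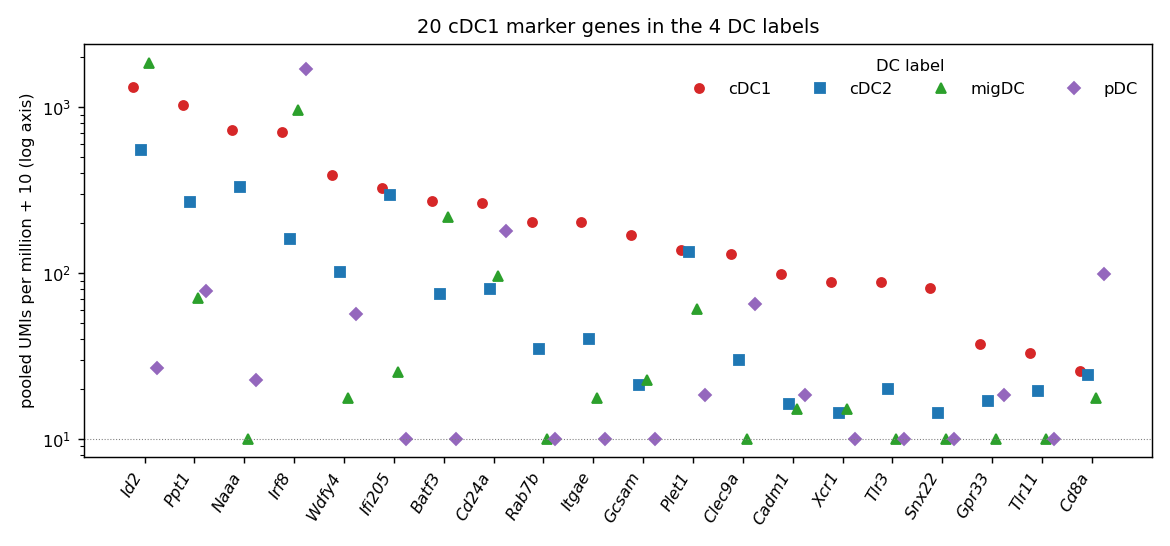
Pooled levels of the 20 cDC1 marker genes in the 4 DC labels, in CPM + 10 on a log axis, with genes ordered by their level in cDC1 and a dotted line at a level of 0. The red cDC1 points lie above the blue cDC2 points for every gene, while pDCs exceed cDC1 in Irf8 and Cd8a and migDCs in Irf8 and Id2.

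The label did not hold every cell with these transcripts. Outside the DC labels, 69 of 22482 immune cells had a UMI of Xcr1 or Clec9a, and 27 of these had at least 2 such UMIs. In primary tumors, 30 of 1557 immune cells had such a UMI, of which 3 were labelled cDC1, 10 carried another DC label and 17 a label outside the DCs. The 30 cells made 1.93%, the highest share of the tissues, against 0.142 to 0.773% elsewhere. In metastasis core 12 of 3395 immune cells had one, 5 under another DC label and 7 outside the DCs, and none of these was labelled cDC1. The frequencies below count cells by label and leave such cells out.

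The markers were not equally present in every tissue. In the 33 cells labelled cDC1 from the metastasis core, Xcr1, Clec9a and Cadm1 had 0 UMIs in 60459, a depth at which a count of 0 allows up to 49.6 CPM (3 UMIs). At the pooled level of the other 211 lung cells, 5.79 UMIs of Xcr1, 9.81 of Clec9a and 7.80 of Cadm1 would have been counted. That pool was uneven, since among samples of at least 3 cDC1 cells Xcr1 had no UMI in 4 of 7 metastases and 2 of 3 margins. In the other 7 tissues Xcr1 ranged from 49.0 to 157 CPM and Clec9a from 43.4 to 251 CPM. The lowest of these values lie below 49.6 CPM, so the count of 0 for a single gene does not set core apart from relapse-free lung or margin in Xcr1, or from primary tumors in Clec9a. Cadm1 ranged from 0 to 217 CPM there, and had no UMI in primary tumors either, in 161443 UMIs. Of the 20 markers, 8 had no UMI in core, against 1 to 6 in the other tissues. The summed level of the list in core was 3242 CPM, below the 5253 to 8442 CPM of the other 7 tissues, and the cDC2 cells of the same core samples were at 2004 CPM. Among samples of at least 3 cDC1 cells, cores ranged from 1168 to 3908 CPM. They overlapped metastases (1219 to 9310), distal normal tissue (2198 to 13909) and primary tumors (3834 to 4733), but not the other tissues. Cores of fewer than 3 cells are left out of these ranges. For 12 of the markers (named below), their cells held 13 UMIs in 1651 (mouse 32), 6 in 732 (mouse 36), 5 in 1329 (mouse 31), and 4 in 2383 and 12 in 2874 (mouse 28). In the cores kept, the most in 1 cell was 7, in 1519 UMIs of mouse 25. The separation is thus not shown for the cores left out. Wdfy4 was at 33.1 CPM in core and at 147 to 555 CPM elsewhere, and Irf8 at 347 CPM in core and at 436 to 1302 CPM elsewhere. Some genes of the label were at their usual level. Id2, a transcription factor needed for cDC1, was at 1207 CPM in core within a range of 965 to 1654 elsewhere, and Cst3, a protease inhibitor typical of DCs, was at 27424 CPM. Of the 33 core cells, 13 came from mouse 30. Beside this, the 15 migDC markers were all detected in core and summed to 4036 CPM, within a range of 39.6 to 4416 over the tissues, and Ccr7 was at 1406 CPM against 0 to 310 elsewhere, with 73 of its 85 UMIs in 1 cell of mouse 17. Markers of cDC2 summed to 7278 CPM in core, of which Ccl17 gave 6170, and macrophage and monocyte markers to 1158 CPM, the lowest of the tissues, with C1qa, C1qc, Adgre1, Apoe, Fn1 and Chil3 among those at 0. Their part in the core values was not tested. The core cells are called by their label here, although Xcr1 and Clec9a were not detected in them.

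**Figure D2:**
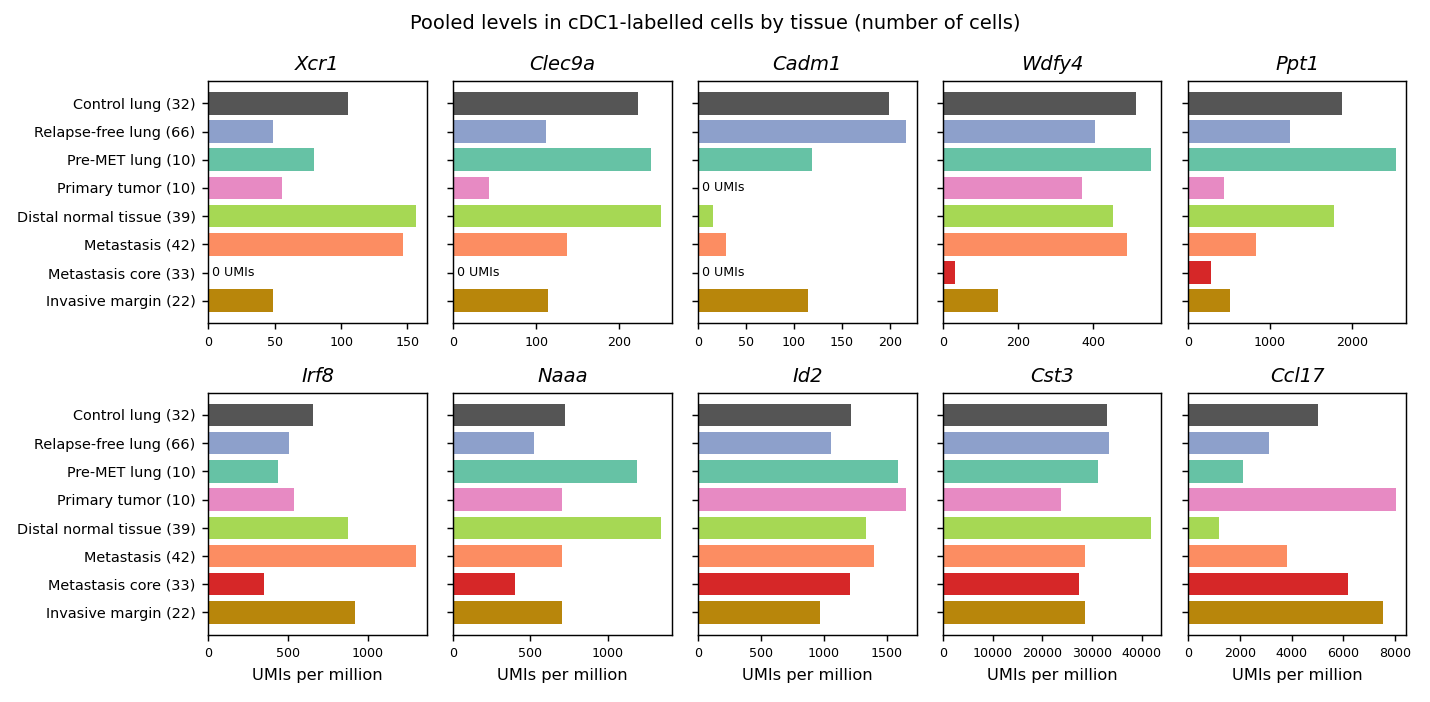
Pooled levels of 10 genes in the cells labelled cDC1, in CPM from 0, with 1 bar per tissue and the number of cells in brackets. Metastasis core has no UMI of Xcr1, Clec9a or Cadm1 (Cadm1 is also at 0 in primary tumors), while its Cst3 of 27424 and Id2 of 1207 CPM lie near the other tissues.

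Against cDC2, 65 of 970 genes with at least 200 CPM in either label kept the same sign of difference in all 8 tissues, 24 higher and 41 lower in cDC1. Of all genes detected, 4.91% were at least 2-fold higher and 5.39% at least 2-fold lower in cDC1. Ccl17, a chemokine that attracts CCR4+ T cells, stood first among the higher genes, at 5014 CPM against 41.7 (log2 ratio 6.60). Of its 3522 UMIs in cDC1, 1086 lay in 1 primary tumor cell of mouse 38, the sample with the highest level given below. Samples with 5 or more cells of both labels numbered 15. Among them Ccl17 in cDC1 ranged from 0 to 14047 CPM with a median of 2841, and in cDC2 from 0 to 393 CPM with a median of 0. It was higher in cDC1 in 14 of the 15. Cst3 ranged from 11103 to 57978 CPM in cDC1, with a median of 32332, and from 2113 to 13036 CPM in cDC2, with a median of 6731. It was higher in cDC1 in 15 of 15 samples, and its pooled log2 ratio was 1.89. Ppt1, a lysosomal thioesterase, was at 1025 against 259 CPM and higher in 11 of 15 samples. Irf8 was higher in 12 of 15 samples, Id2 in 14 and Naaa in 10. Cd24a, a surface glycoprotein of cDC1, was at 255 against 70.3 CPM, but higher in only 9 of 15 samples. Other leaders were Commd8, Cyb5a, Tbca and Marcks, with log2 ratios of 0.99 to 1.47.

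The genes lower in cDC1 were led by a small set of membrane proteins and interferon-induced genes. Ms4a4c and Ms4a6c, members of a family of membrane-spanning proteins in myeloid cells, were at 110 and 191 CPM in cDC1 against 919 and 949 CPM in cDC2, and each was lower in 15 of 15 samples. Ifitm3, which blocks the entry of viruses, ranged from 52.7 to 2419 CPM in the cDC1 of the 15 samples and from 1423 to 5722 CPM in the cDC2. It was lower in cDC1 in 15 of 15, with a pooled log2 ratio of -2.19. Its neighbors Ifitm2 and Ifitm6 had log2 ratios of -2.09 and -2.14. Rtp4, an interferon-induced chaperone, was at 51.2 against 371 CPM, and Ly6c2, a surface protein of inflammatory monocytes, at 54.1 against 351 CPM. Plac8 was at 403 against 1824 CPM and Clec4a3, a lectin receptor of myeloid cells, at 127 against 555 CPM. Gm7676, Gm45308 and AC156031.4 completed the 12. Gm7676 and Gm45308 are processed pseudogenes, so their counts are uncertain.

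Type I interferon response genes were lower in cDC1 as a group. All 37 genes of the list had a lower pooled level in cDC1 than in cDC2, 30 of them at least 2-fold, with a median log2 ratio of -1.68. The summed level was 6440 CPM in cDC1 and 23574 CPM in cDC2. The sum was lower in cDC1 in 8 of 8 tissues, with log2 ratios of -1.83 to -1.06, and in 15 of 15 samples, with ratios of -2.39 to -0.59. Ifitm1 was at 380 against 3037 CPM, Ly6a, a surface protein known as Sca-1, at 138 against 1499, Isg15, a ubiquitin-like modifier, at 61.2 against 353 and Ifit3, a binder of viral RNA complexes, at 38.4 against 366. The lowest sums of both labels lay in control lung, at 2854 CPM in cDC1 and 9209 in cDC2, and the highest in metastasis core, at 10602 and 37848. These sums pool the cells of all mice. In the fits over samples described below, 9 of the 12 list genes tested in cDC1 were lower in core than in primary tumors, with a median of -1.03. Against margin, 7 were higher in core and 5 lower, with a median of 0.10. A peak of the list in core cDC1 is thus not shown over samples. In the core all 37 genes were lower in cDC1. The tally was less even in Pre-MET lung (11 higher and 12 lower), distal normal tissue (11 and 24) and margin (11 and 23). Against migDC the list split evenly, with 19 of 37 genes higher in cDC1 and a median of 0.02, and against pDC 24 of the 36 detected were higher, with a median of 0.28. Over all genes detected, the median was 0.19 against migDC and 0.40 against pDC, with 7756 of 13043 and 8264 of 12586 genes higher in cDC1. The list's medians thus lay below those of all genes there too, but by far less than against cDC2. By the sum, the 6440 CPM of cDC1 lay below the 10526 CPM of pDC as well, and above the 5740 CPM of migDC. Ly6e, Ifi27l2a, Ifitm2 and Ifitm3 were the most abundant members in cDC1, at 1317, 868, 910 and 864 CPM.

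Interferon-induced genes are switched on by factors that bind an interferon-stimulated response element in their promoters, and stretches around such letters are shown for 5 genes of the list, as examples of the shared sequence. The search was for GAAA followed by any 2 bases and a second GAAA (or TTTC, any 2 bases and TTTC, on the other strand) in the 250 bases before each start site of RefSeq promoters (GRCm38.p6). They were found for 12 of the 27 list genes with an entry (44.4%), for 2 of 16 cDC1 marker genes (12.5%) and for 936 of all 27025 genes (3.46%). A match is a description of the letters only. The sequences are printed 5′ to 3′ on the strand of the gene, with 1 match in capitals, and further matches in the same stretch are left in lower case.
Ifitm2: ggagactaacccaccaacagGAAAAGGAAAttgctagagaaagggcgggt
Bst2: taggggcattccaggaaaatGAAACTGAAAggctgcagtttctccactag
Ifit3: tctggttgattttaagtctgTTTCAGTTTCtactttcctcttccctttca
Isg15: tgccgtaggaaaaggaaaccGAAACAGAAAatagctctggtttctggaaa
Ifit1: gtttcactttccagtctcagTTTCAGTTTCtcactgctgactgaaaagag
They lie at chr7:140955978-140956027 (minus strand), chr8:71537567-71537616 (minus), chr19:34583387-34583436 (plus), chr4:156200855-156200904 (minus) and chr19:34640784-34640833 (plus). The match begins 46, 124, 122, 66 and 85 bases before the start site. Pooled levels in cDC1 and cDC2 were 910 and 3906 CPM for Ifitm2, 124 and 419 for Bst2, a tether of budding viruses, and 8.54 and 190 for Ifit1.

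Other pathway lists differed less from cDC2 in their median log2 ratio, though not all of them in their summed level. Of 19 genes of MHC class I presentation and cross-presentation, 9 were higher and 10 lower in cDC1, none of them 2-fold, with a median log2 ratio of -0.04. The summed level of that list was lower in cDC1 in 14 of 15 samples, with ratios of -0.85 to 0.15. B2m, the light chain of MHC class I molecules, was at 3849 against 6202 CPM, H2-D1 and H2-K1, its heavy chains, were at 2712 against 3106 and 1261 against 1510, and Cyba, an oxidase subunit of the phagosome, was at 1967 against 2076, while Tap2, a subunit of the peptide transporter, was at 248 against 136 CPM. Of 12 MHC class II genes, 9 were lower in cDC1 in the pooled levels, with a median of -0.19, but the summed level was higher in cDC1 in 5 of 8 tissues and in 11 of 15 samples, with sample ratios of -0.62 to 1.82 and a median of 0.23, so the pooled direction did not hold within most samples. H2-Ab1, the most abundant of them, was at 26383 CPM in cDC1 and 26298 in cDC2, H2-Aa at 9050 and 9735, Cd74 at 8715 and 11975 and H2-Eb1 at 8080 and 9391. Ctss, the protease that trims the invariant chain, was at 1274 against 2805 CPM. Of 25 cell cycle genes, 18 were higher in cDC1, with a median of 0.63, and Mki67, a marker of dividing cells, was at 182 against 13.1 CPM. The summed level in cDC1 was 6888 CPM in the 10 cells of primary tumors and 357 to 1161 CPM in the other 7 tissues, with log2 ratios to cDC2 of 1.74 in primary tumors and -2.27 to 0.52 elsewhere. The sum was higher in cDC1 in 10 of 15 samples. Among the abundant members, Tubb5, H2afz and Tuba1b were at 534 against 341, 315 against 221 and 293 against 238 CPM. Of 16 genes of glycolysis and hypoxia, 12 were lower in the pooled levels, with a median of -0.51, but the summed level was lower in only 4 of 8 tissues and 7 of 15 samples, with a sample median of 0.08. Ldha, the lactate-producing enzyme, was at 935 against 1050 CPM, and Aldoa, Pkm and Eno1 had log2 ratios of -0.36, -0.64 and -0.69. Of 15 immediate early and heat shock genes, which rise during tissue digestion, 11 were lower, with a median of -0.27, and Fos, the most abundant, was at 1713 against 2007 CPM, with Dusp1, Junb and Zfp36 at log2 ratios of -0.61, -0.86 and -0.58. The costimulation, cytokine and chemokine list summed to 7689 against 1804 CPM, of which Ccl17 gave 5014, and the sum was higher in cDC1 in 14 of 15 samples. Cxcl16, a chemokine bound by CXCR6, was at 596 against 301 CPM and Ccl5, which attracts T cells, at 508 against 365. Of 7 pan-DC genes, 5 were higher, among them the maturation marker Cd83 at 481 against 236 CPM, while Itgax, the CD11c integrin chain, was at 99.6 against 161.

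Markers of other cell types were summed in the same way. Of 14 macrophage and monocyte markers, 10 were lower than in cDC2, with a median log2 ratio of -1.04, and Lyz2, Ccr2, Cd68 and Csf1r were at 1237, 319, 298 and 107 CPM. Of 14 cDC2 markers, 9 were lower, and Ccl17, Mgl2, Clec12a, Tnip3 and Irf4 were the 5 higher ones. Their sum was higher in cDC1, at 6499 against 3376 CPM, of which Ccl17 gave 5014, and it was higher in 7 of 8 tissues and 8 of 15 samples, with a sample median of 0.28. Of 15 migDC markers, 10 were higher, led by Ccl22 at 745 against 18.7 CPM and Il12b at 178 against 0.622, and 12 of the 12 pDC markers detected were lower. Neutrophil markers summed to 596 CPM in cDC1 and 328 in cDC2, T and NK cell markers to 232 and 154, B cell markers to 962 and 639, lung epithelial markers to 117 and 18.7 and erythroid markers to 94.0 and 80.8. In each tissue the T and NK cell markers of cDC1 lay between 39.6 and 433 CPM and the B cell markers between 198 and 2452. The part of such transcripts in the differences was not tested.

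Against migDC, cDC1 were higher in Mgl2, Alox5ap and Ckb and lower in Fscn1, Ccl5 and Tnfrsf4, and against pDC higher in Ccl17 and Ccl22 and lower in Siglech and Igkc. Of the detected genes, 16.9% were at least 2-fold higher and 12.9% at least 2-fold lower in cDC1 than in migDC, and 22.7% and 11.4% than in pDC. Mgl2, a lectin receptor, had 291 UMIs in cDC1 and none in migDC or pDC. Alox5ap, which activates leukotriene synthesis, was at 867 CPM in cDC1 and 12.6 in migDC, and Ckb, a creatine kinase, at 503 and 5.03. Cd209a, a lectin usually assigned to cDC2, was at 353 CPM in cDC1, 2.52 in migDC and 958 in cDC2. Fscn1, an actin bundler of mature DCs, was at 11.4 CPM in cDC1 and 1656 in migDC, Ccl5 at 508 and 14484, and Tnfrsf4, the costimulatory receptor OX40, at 1.42 and 214. Nudt17, Tmem123 and Apol7c were also lower, with log2 ratios of -4.24 to -4.64. Siglech, the defining lectin of pDCs, had 2 UMIs in cDC1 and 560 in pDC. Ccl17 and Ccl22 had no UMI in pDC, and Bcl2a1d, a survival gene, and Cxcl16 had 1 each. The immunoglobulin genes Ighg2b, Igkc, Iglv1, Iglv2 and the joining chain Jchain were the others far lower in cDC1, with Igkc at 665 CPM in cDC1 and 149370 in pDC. Immunoglobulin is a product of plasma cells, whose part in the pDC values was not tested.

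Ccl17 divided the cDC1 cells. At least 3 UMIs of Ccl17 were found in 80 of the 254 cells and 174 had fewer, 17 cells with 1 or 2 UMIs and 15 with 3 or 4 lying near this limit, which was chosen after the values were seen. After thinning to 500 UMIs, a Ccl17 UMI was found in 32.7% of cDC1 cells, 13.7% of migDCs, 1.20% of cDC2 cells and none of 73 pDCs, against 0.264% of the CD4 T cells. Ccl22, the other CCR4 ligand, was found in 24 of the 80 cells and in 4 of the 174. Il12b, a subunit of interleukin 12, gave 125 UMIs in 9 of the 80 cells, which came from 7 samples, and none in the 174. The chemokines and Il12b thus lay largely in the same cells. Among the other labels Il12b gave 642 UMIs in 29 of 117 migDCs and 1 UMI in 499 cDC2 cells. In the 80 Ccl17 cells, Irf8 was found in 21 cells and Naaa in 33, against 81 and 74 of the 174 others.

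Of 12 cDC1 genes (Xcr1, Clec9a, Naaa, Irf8, Cadm1, Wdfy4, Tlr3, Snx22, Ppt1, Itgae, Gcsam and Rab7b, chosen with the values known), most cells held at least 1 UMI and 24 held exactly 1. With at least 1 UMI of these genes and at least 3 UMIs of Ccl17 as the limits, 50 cells passed both, 122 passed for the cDC1 genes alone, 30 for Ccl17 alone and 52 for neither. The 17 cells with 1 or 2 Ccl17 UMIs thus count as cells without Ccl17. The 30 cells with Ccl17 alone had a median of 1198.5 UMIs and the 52 with neither a median of 973, against 2522 and 1657.5 for the cells with cDC1 genes, so that fewer UMIs were available in which to see them. Cst3 was at 24388 CPM in the 30 cells, 14252 in the 52, 37270 in the 50 and 30145 in the 122, and above the 8136 CPM of cDC2 in each. Cd209a was at 844 CPM in the 30 cells and 795 in the 52, near the 958 CPM of cDC2, against 430 and 150 in the cells with cDC1 genes. These levels rest on few cells, since Cd209a was found in 7 of the 30 and 10 of the 52. In the 30, 1 cell held 14 of the 44 UMIs, and in the 52, 1 cell held 28 of the 58. S100a4, a calcium-binding protein of motile cells, was at 3298 and 2823 CPM against 667 and 623. Cdkn1a, an inhibitor of the cell cycle, was at 2186 CPM in the 30 cells and at 257 in the 122. Batf3 and Id2, which are outside the 12 genes, were detected in all 4 kinds of cell. Batf3 was at 173 CPM in the 30 cells, 247 in the 52, 194 in the 50 and 320 in the 122, and Id2 at 671, 178, 1550 and 1493 CPM. Batf3 was above the 64.7 CPM of cDC2 in each kind, but Id2 in the 52 cells was below the 545 CPM of cDC2. The share of cells with a cDC1 gene was 50 to 77.3% across the tissues, 66.7% in core. With each cell thinned as above, a UMI of the 12 genes was found in 55.1% of cDC1 cells and 54.8% of pDCs. The share was 30.8% in migDCs, 24.4% in cDC2 cells, 18.7% in B cells and 4.49% in the CD4 Lef1 T cells. A UMI of these genes thus did not set cDC1 cells apart from pDCs. The thinned share with Ccl17 was 51.5% in core and 40.9% in margin, 35.7% in metastases, 23.1% in distal normal tissue, 28.1% in control lung, 31.8% in relapse-free lung, 20% in primary tumors and 10.0% in Pre-MET lung. These shares pool the cells of all mice and were not tested. Of the 15 core cells with at least 3 Ccl17 UMIs, 7 came from mouse 30, and the 7 such cells of distal normal tissue came from 3 of 13 mice.

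**Figure D3:**
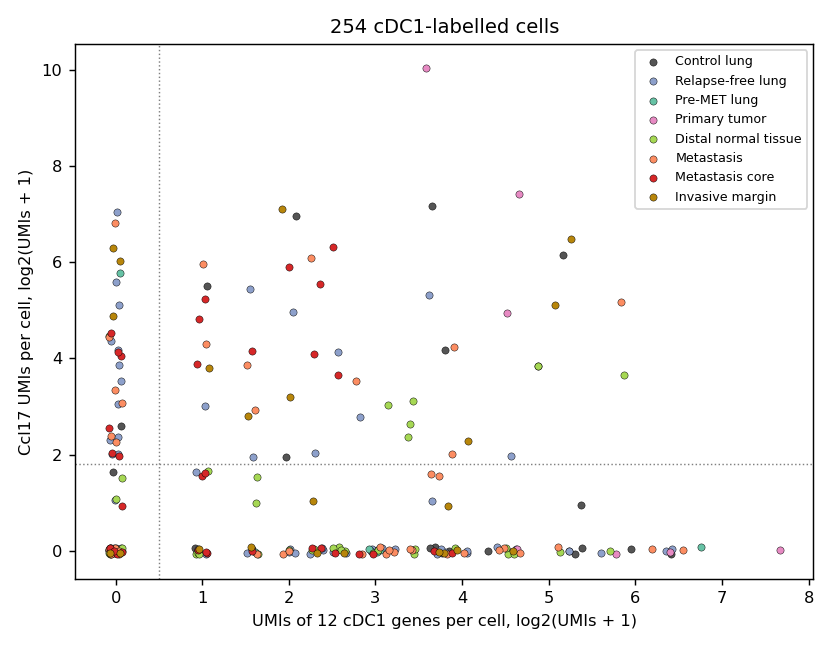
Each point is 1 of the 254 cDC1-labelled cells, colored by tissue, with UMIs of the 12 cDC1 genes on the x axis and Ccl17 UMIs on the y axis, both as log2(UMIs + 1) with a small random offset. Dotted lines mark 1 UMI of the 12 genes and 3 UMIs of Ccl17, which leave 50 cells at the upper right, 30 at the upper left, 122 at the lower right and 52 at the lower left.

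Frequencies of cDC1 were compared between tissues over mice, as percentages of DCs in samples with at least 3 DCs. Control lungs had 40.0, 47.1 and 61.5% and Pre-MET lungs 16.7, 30.8 and 33.3%, so the groups did not overlap. The mean was 49.5% ± 11.0 (SD, n = 3) against 26.9% ± 8.97 (n = 3), and the exact permutation p of 0.1 is the smallest that 3 against 3 allows (adjusted p = 0.125 over the 5 comparisons). Control mice were the only mice of their sequencing batch, so batch and group cannot be told apart here. Primary tumors had 0, 6.67, 7.32 and 8.20% cDC1 among 30 to 61 DCs each. Cores ranged from 2.70 to 44.8% with a median of 27.3%, and 3 of the 9 lay at or below 10.0%. The means were 5.55% ± 3.75 (n = 4) and 22.3% ± 15.0 (n = 9), with an exact permutation p of 0.0476 and an adjusted p of 0.113. Counted by a UMI of Xcr1 or Clec9a among all immune cells, the order was the other way, at 1.93% in primary tumors and 0.353% in core. Those shares were not tested, and the cDC1 cells of primary tumors were also the deepest. Distal normal tissue ranged from 12.5 to 71.4% with a median of 40.0% and metastases from 0 to 66.7% with a median of 22.3%, and the samples overlapped widely. The means were 39.8% ± 14.4 (n = 12) and 26.5% ± 19 (n = 12), with a permutation p of 0.0681 (adjusted p = 0.113).

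The margin was set against the core of the same mouse in 5 mice, each with 3 or more DCs in either place. The core held 27.3, 37.5, 2.70, 10.0 and 7.14% cDC1 among DCs in mice 17, 26, 28, 31 and 36, and the margin 58.8, 100, 50, 33.3 and 44.4%. The margin was higher in 5 of 5 mice, by 40.4 percentage points on average, and the exact sign-flip permutation p of 0.0625 is the smallest that 5 pairs allow (adjusted p = 0.113). The margin percentages rest on 3 to 17 DCs each. The core and margin of mouse 17 also differed in gate. Split by sequencing batch, the difference was 16.7 to 52.7 points in the 4 batches that held both tissues. These are largely the same samples again, with 1 core and 1 margin in SB112 and in SB128, so they add no separate evidence. The difference between metastasis and distal normal tissue was positive in 1 of 3 batches, at -15.9 to 13.4 points. Core and primary tumors shared 1 batch, in which the difference was 7.14 points. Relapse-free lungs had 13.3 to 50% with a median of 40.0%, and did not differ beyond their spread from control lungs (exact permutation p = 0.238, n = 6 and 3).

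As percentages of all immune cells, cDC1 were rare everywhere. Group means ranged from 0.574% ± 0.410 (n = 4) in primary tumors to 1.57% ± 1.23 (n = 14) in distal normal tissue. None of the 5 differences passed, the lowest adjusted p being 0.25, for control against Pre-MET lungs (1.52% ± 0.465 against 0.712% ± 0.248, n = 3 each, exact permutation) and for core against margin (0.771% and 1.32% in 6 mice, exact sign-flip permutation). The log2 ratio of cDC1 to cDC2 cells (1 cell added to each) was below 0 in primary tumors, with a mean of -3.01 ± 1.15 (n = 4), and was above 0 in control lungs, with 0.68 ± 0.56 (n = 3). The differences were -1.40 for Pre-MET against control lungs, 1.59 for core against primary tumors, -0.87 for metastases against distal normal tissue and 2.62 for margin against core, each with an adjusted permutation p of 0.125. Primary tumors held 93 cDC2 and 49 migDC cells beside 10 cDC1, and control lungs 18 cDC2 and 7 migDC beside 32 cDC1. The low share of cDC1 among the DCs of primary tumors thus stood beside many cDC2 and migDC, and as a share of immune cells cDC1 were 0.642% there when samples were pooled, against 0.711% in Pre-MET lung and 1.55% in control lung. These shares count cells by label. Immune cells with a UMI of Xcr1 or Clec9a were most frequent in primary tumors, where 3 of 30 such cells were labelled cDC1.

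**Figure D4:**
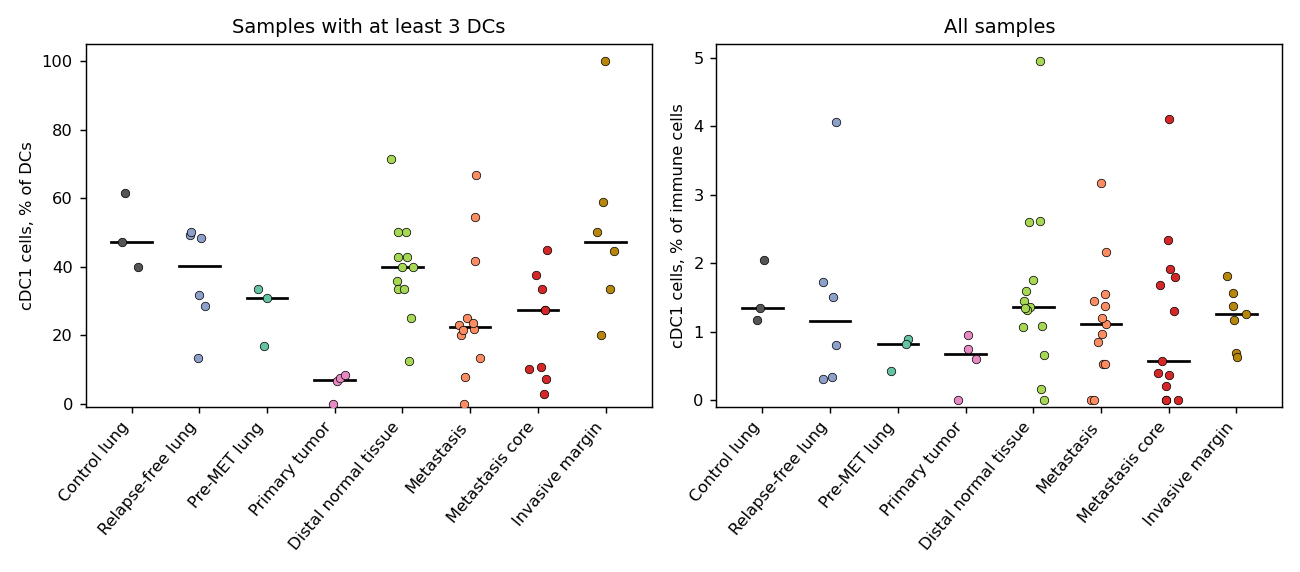
Percentage of cDC1 cells among DCs (left, samples with at least 3 DCs) and among immune cells (right, all samples), with 1 point per sample and a bar at the median of each tissue. Primary tumors lie at 0 to 8.20% of DCs, while margins lie at 20 to 100%, and in the immune cell panel the control lungs (1.17 to 2.05%) lie above the Pre-MET lungs (0.427 to 0.885%) and primary tumors (0 to 0.956%), while every other pair of tissues overlaps.

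Expression in cDC1 was compared between tissues on UMIs summed per sample over 1080 genes. Samples with fewer than 3 cDC1 cells were dropped, which left 34, among them 2 primary tumors, 2 Pre-MET lungs and 3 margins. The test was edgeR's quasi-likelihood test with Benjamini-Hochberg adjustment. The comparisons called few genes. Core against primary tumor called 2 genes (0.185% of genes tested), metastasis against distal normal tissue 2 (0.185%), core against margin 3 (0.278%) and primary tumor against the 7 lung groups 7 (0.648%). Pre-MET against control lung and relapse-free against control lung called 0 (0%), with 78 and 42 genes at an unadjusted p under 0.05, and DESeq2 also called 0 in both, with 73 and 32. DESeq2 called fewer genes than edgeR for metastasis against distal normal tissue, core against margin and primary tumor against lung. With so few cells per sample, a difference that was not called may still exist.

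Cd74, the invariant chain that guides MHC class II, was called in 4 of the comparisons. Its level was 11140 and 21574 CPM in the 2 primary tumors, and 360 to 2432 CPM in 6 cores, so that the groups did not overlap (log2 change -3.90, SE 0.71, adjusted p = 0.000543). It was 2233 to 23970 CPM in 7 metastases and 455 to 3423 CPM in 7 distal normal tissues (2.58, SE 0.54, adjusted p = 0.00967), and 1841, 3933 and 22244 CPM in the 3 margins (core minus margin -2.98, SE 0.66, adjusted p = 0.0158). The level also followed the sequencing batch. Pooled Cd74 in cDC1 was 14803 to 46626 CPM in the batches SB124, SB126, SB128 and SB132 and 1733 to 5903 CPM in the 8 others. In cDC2 it was 13059 to 34845 against 851 to 4589 CPM and in B cells, which use the same gene, 9678 to 40757 against 1121 to 2515 CPM. H2-Aa, a class II chain, was 8938 to 12293 CPM in cDC1 in those 4 batches and 5948 to 12680 CPM in the others. Without these 4 batches, a choice made after the values were seen, the Cd74 difference was 0.47 between metastasis and distal normal tissue (adjusted p = 0.971) and -1.07 between core and margin (adjusted p = 0.835), and the calls were lost. In samples of at least 2 cells the difference between metastasis and distal normal tissue turned to -0.10 (adjusted p = 0.998). Leaving out 1 sample also ended the first call, at 2.04 without the metastasis of mouse 36, 2.57 without the distal tissue of mouse 26 and 2.46 without that of mouse 30, and the second, at -1.19 without the margin of mouse 36, -3.06 without the core of mouse 24 and -2.84 without that of mouse 25. With mouse as a block the 2 differences were 1.68 over 4 mice (adjusted p = 0.571) and -0.79 over 2 mice (adjusted p = 0.892). Both primary tumors were sequenced in SB132, which holds no core sample of this fit, so the batch and the tissue cannot be told apart there.

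**Figure D5:**
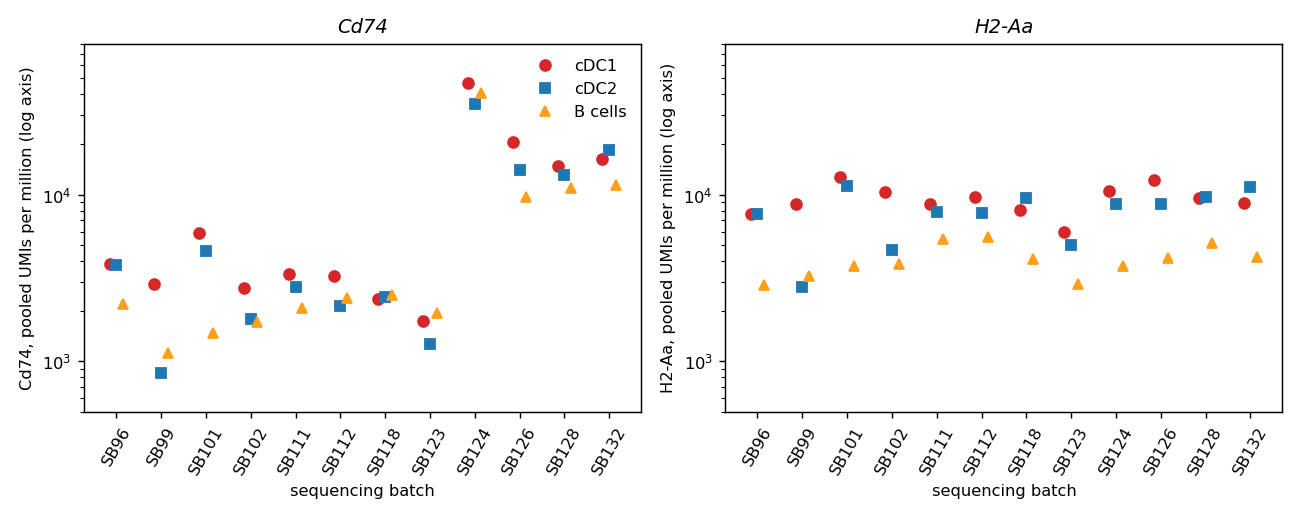
Pooled CPM of Cd74 (left) and H2-Aa (right) by sequencing batch on a log axis, for cDC1 (red circles), cDC2 (blue squares) and B cells (orange triangles). Cd74 lies at 9678 or above in SB124, SB126, SB128 and SB132 and at 5903 or below in the 8 other batches for all 3 cell types, while H2-Aa shows no such step.

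Mir5107, a microRNA annotated at chr18:60812076-60812163 (mm10) within the gene Cd74 at chr18:60803848-60812652, moved with it. It was called lower in core than in margin (-4.56, SE 1.03, adjusted p = 0.0158), on 160 UMIs in the margin of mouse 36 and 0 and 8 in the other margins. Without that sample the difference was -0.94 and was not called. Mir5107 also followed the sequencing batch. It was at 1109 to 8289 CPM in cDC1 in the 4 batches of high Cd74 and 11.7 to 437 CPM in the 8 others. In cDC2 it was 447 to 7197 against 26.3 to 199 CPM, and in B cells 471 to 7708 against 0 to 168 CPM. The margin of mouse 36 was sequenced in SB128, which held no core of this fit. The 88 bases of Mir5107 share no stretch of 50 with the transcripts of Cd74, and whether unspliced Cd74 RNA was counted under its name was not tested.

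Irf8 was the cDC1 marker called between tissues. It was 567, 1248 and 1841 CPM in the 3 margins. Of the 6 cores, 4 had no UMI of it and the others were at 174 and 360 CPM, and the log2 change was -3.79 (SE 0.93, adjusted p = 0.0377). Every core value of this fit lay below every margin value, but the 360 CPM is 1 UMI. In the 2559 and 2568 UMIs of the cores of mice 23 and 24 a count of 0 allows a level above the lowest margin. The separation of single samples is thus not shown at this depth. The fit also left out cores of fewer than 3 cells. Pooled over all 33 core cells Irf8 was at 347 CPM, although the fitted cores held most of the core UMIs. The left-out cores thus held, as a pool, a level well above every fitted core. A lower Irf8 level is therefore not shown for the cores that the fit left out. Irf8 in cDC1 also ran higher in the 4 batches of high Cd74, at 539 to 1454 CPM, than in the 8 others, at 0 to 876 CPM, with overlap. Of the 10 cDC1 markers tested, all 10 had a negative estimate in core against margin, with a median of -1.66, and 1 was called. Over all 1080 genes, 612 were negative, with a median of -0.24. Other lists also lay to one side, with 7 of 7 immediate early and heat shock genes negative (median -1.92), 12 of 12 MHC class II genes (-0.94), 4 of 4 macrophage and monocyte markers (-1.13) and 4 of 5 cDC2 markers (-0.36), while 5 of 6 migDC markers were positive (2.25). The negative estimates were thus not particular to the cDC1 markers, and the part of the other lists was not tested. The call was lost in 7 of 9 fits that left out 1 sample, with estimates of -5.05 to -3.57, and the batch-restricted value was -3.53 (adjusted p = 0.359). Of all 17 alternatives, 13 lost the call, and the estimate was -2.48 in samples of at least 2 cells. Samples of at least 5 cells left 1 core and 1 margin, at -1.75.

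Psap, the precursor of lysosomal saposins, was at 3509 and 2296 CPM in the 2 primary tumors. In 4 of the 6 cores it had no UMI, and the other cores were at 277 and 261 CPM (log2 change -4.52, SE 0.87, adjusted p = 0.000865). Psap also followed the sequencing batch in cDC1, at 1388 to 2317 CPM in the 4 batches of high Cd74 and 219 to 1262 CPM in the 8 others, and since both tumors lie in SB132, batch and tissue cannot be told apart here either. The estimate was -5.13 to -3.46 over 15 alternatives, and the call was lost in cells of at least 1000 UMIs (-3.46, adjusted p = 0.0579) and where samples of at least 5 cells left 1 core and 1 tumor. Ccl9, a chemokine of myeloid cells, was called higher in metastasis than in distal normal tissue (5.34, SE 1.22, adjusted p = 0.0204). Of its 117 UMIs in metastases, 103 lay in 1 cell of mouse 31. Without that sample the difference was 2.14 and was not called, so this call rests on 1 cell. It was also lost, at 5.02 to 5.29, without the distal tissue of mouse 24, 26, 27 or 30.

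Primary tumors against the 7 lung groups called Cd74, Ifi27l2a, Nr4a3, Prkcd, Tmsb10, Gm3788 and Plac8, all higher. DESeq2 called no gene in this comparison. There were 2 primary tumor samples, with 3 and 5 cells. Mouse 10 gave both a primary tumor and a Pre-MET lung to this fit, and mice such as 17, 23, 24 and 26 gave several lung tissues. The fit treats all of these samples as independent. Both tumors were sequenced in SB132 and no lung sample of this fit was, so batch and tissue cannot be told apart for any of the 7 genes. Nr4a3, a nuclear receptor, had 73 of its 75 UMIs in 1 cell of mouse 38, and without that sample its log2 difference was -1.68. Plac8 had 94 of 98 UMIs and Ifi27l2a, an interferon-induced gene, 186 of 227 in 1 cell of mouse 10, and without that sample they stood at -2.72 and -0.24. These 3 were thus carried by a single cell each. Prkcd, a protein kinase, was at 1591 and 227 CPM in the 2 tumors (3.39, SE 0.85, adjusted p = 0.0311), and at 1.69 and not called without mouse 10. Cd74 was at 1.85 and not called without mouse 38. Tmsb10, an actin-binding peptide, was at 5998 and 3043 CPM, and Gm3788 is a processed pseudogene that shares 75.9% of its 50-base stretches with Tmsb10, so that the reads of the pair cannot be assigned with certainty. Without mouse 10 the pair stood at 1.85 and 1.81 and was not called. Lung epithelial and erythroid markers had 0 UMIs in the cDC1 cells of primary tumors, and T and NK cell markers were at 142 CPM. Macrophage and monocyte markers summed to 1933 CPM in primary tumors, against 1158 to 3329 CPM over all tissues, with C1qa, C1qc, Adgre1 and Chil3 at 0.

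In the comparisons that called no gene, the genes with the lowest p were, for Pre-MET against control lung, Ccl17 (edgeR adjusted p = 0.263), Timm8b (adjusted p = 0.447) and Mcl1 (adjusted p = 0.535), and for relapse-free against control lung Gm12319, Pim1 and Cep85, each with an adjusted p of 0.994. Ccl17 was at 293, 5305 and 8429 CPM in the 3 control lungs and had no UMI in the 2 Pre-MET lungs of this fit, while the third Pre-MET lung, with 2 cDC1 cells, held 54 UMIs in 1 cell. By list, none of the type I interferon response genes was called in 5 of the 6 comparisons, with 12 of 37 tested, and 1 was called in primary tumors, Ifi27l2a. None of the 11 MHC class I and cross-presentation genes tested was called in any comparison, and of the 12 class II genes only Cd74 was. With 0 to 0.648% of all genes called, a count of 0 in lists of this size says nothing particular about them. None of the 5 tested genes of the costimulation, cytokine and chemokine list and none of the 2 cell cycle genes tested was called.

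The cells of primary tumors were the deepest. Sample medians were 9214 and 17346 UMIs per cDC1 cell in 2 primary tumors and 648 to 6395 in 6 cores, a difference of -11301 with an exact permutation p of 0.0357, the smallest that 2 against 6 allows. Both tumors were sequenced in SB132 and none of these cores was, so batch and tissue cannot be told apart here either. Distal normal tissue and metastases did not differ beyond their spread, with means of 1478 ± 1221 and 1738 ± 773 UMIs (n = 7 each, permutation p = 0.656).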

How the data were processed

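Each CD45+ or photoactivated cell of mouse lung or mammary tumor was placed in 1 well of a 384-well plate, and its mRNA molecules were tagged with UMIs before sequencing. Per the study's methods, the authors mapped reads to mm10 with HISAT, excluded reads with multiple mapping positions, assigned the rest to exons and collapsed them to UMIs, and they deposited raw UMI counts per gene and well, without normalization, for 148 plates. The submitters' processing notes name bcl2fastq 2.15.0.4. The deposited cell table gives the mouse, tissue, sequencing batch and the label from the authors' clustering. Cells under 500 UMIs had no label, doublets were gated out at the sort, and no doublet caller was run. Excluding reads of several positions lowers the counts of genes with near copies.

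The plates of 1 mouse and tissue were pooled as 1 sample, and samples are the replicates. The members, gene lists and tests were chosen with earlier results of these data known. Named genes were the 12 highest and 12 lowest against cDC2 and the 6 highest and 6 lowest against migDC and pDC (at least 200 CPM in either label, CPM + 10 on the log2 scale, the same sign in every tissue with at least 10 cells of both), the called genes or 3 lowest p between tissues, all cDC1 markers and the 4 most abundant members of other lists. Il12b in single cells, Ctss, Tap2, Cdkn1a, S100a4, other interferon genes and the split by Ccl17 were chosen after the values were seen.

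Frequencies were compared by two-sided permutation tests, exact or with 100000 resamples, with Benjamini-Hochberg adjustment over 5 comparisons. Core and margin of 1 mouse were paired. Same-mouse samples are pairs by origin, and as a check their cell type deviations had a mean correlation of 0.33 over 13 mice for distal normal tissue and metastasis (over 0.1 in 10) and 0.186 over 6 mice for core and margin (over 0.1 in 3). Summed UMI counts were tested with edgeR 4.0.16 (TMM, filterByExpr, 1 fit over 8 groups, adjusted p below 0.05) under R 4.3.3, with DESeq2 1.42.0 as an alternative. The fit was tested on simulated data. Other steps used scipy 1.17.1, numpy 2.4.6, pandas 2.3.3 and matplotlib 3.10.9 under Python 3.11.15. Gene coordinates came from GENCODE vM21. The alternatives were other size factors, filters, cell and UMI minimums, mouse or batch as a term, and leaving out samples. Values of a few genes that these rules and lists take in are not reported here.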

Additional observations from a re-analysis of the deposited data

Results flagged for a closer look

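Among 59 groups of 4 to 10 samples checked, 10 held 1 sample far from the others, beside a nominal rate of about 5% of groups by chance. That rate cannot be relied on for genes with few UMIs, where any count stands apart from samples without one. The 560.9 CPM of Ccl9 below, for example, is 2 UMIs. An excess over chance is therefore not shown. Median UMIs per cDC1 cell stood apart in the distal normal tissue of mouse 17, at 4034 with 1930 in the next sample, and in the core of the same mouse, at 6395 with 1607 in the next. Ccl9 stood apart in 4 tissues, at 909.9 CPM in the relapse-free lung of mouse 29, 560.9 in the distal normal tissue of mouse 23, 12249 in the metastasis of mouse 31 and 901.1 in the core of mouse 17. Cd74 was at 6551 CPM in the relapse-free lung of mouse 29, with 3937 in the next sample, and Mir5107 at 5666 CPM in the metastasis of mouse 36, with 1609 in the next. Nr4a3 was at 210.6 CPM in the distal normal tissue of mouse 17, where the other samples had none, and Prkcd at 195.5 CPM in the distal normal tissue of mouse 26. The samples that stood apart held 3 to 6 cells each.

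Outside the annotated cells, Xcr1 or Clec9a was found in 1 of 128 unannotated wells with at least 500 UMIs (0.781%) and in 24 of 32092 wells under 500 UMIs, against 0 of 592 wells left empty.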

How the results depend on the processing

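No frequency difference passed an adjusted p of 0.05 in the main analysis or in any alternative run, and all kept their direction except relapse-free against control lung as a percentage of immune cells (-0.235 to 0.511 percentage points). The difference of margin and core in the percentage of DCs ranged from 28.8 to 44.7 points and that of core and primary tumor from 12.9 to 22.2, including the fits, chosen after the values were seen, without cells lacking the 12 cDC1 genes or without the core of mouse 30. With mouse as a replicate block, metastasis minus distal normal tissue was -14.9 points in 10 mice (permutation adjusted p = 0.134). Without the block, margin minus core was 28.8 points (adjusted p = 0.104). For pairing in the expression fits, the block left 54 and 133 genes to test and called 0 for both metastasis against distal normal tissue and core against margin.

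Genes called by edgeR depended on most settings. RLE size factors gave 3 for primary tumor against lung. A filter at 3 UMIs gave 1 for Pre-MET lung and 1214 for primary tumor, with 11085 genes tested. Samples of at least 2 cells gave 8 for core against primary tumor and 0 for metastasis against distal normal tissue and for core against margin, and samples of at least 5 cells gave 0 against primary tumor and 0 against margin, each with 1 sample against 1. Cells of at least 1000 UMIs gave 1 for Pre-MET lung, 4 for core against primary tumor and 57 for primary tumor against lung. For metastasis against distal normal tissue and core against margin, a batch term gave 1 and 1, a fit of the contrast's groups 1 and 1, DESeq2 1 and 1, and leaving out the 4 batches of high Cd74 1 and 0. DESeq2 gave 0 for primary tumor against lung. Leaving out single samples gave 0 to 1 calls for Pre-MET lung, 2 to 6 for core against primary tumor, 0 to 5 for metastasis (0 without the distal tissue of mouse 26 or 30), 0 to 6 for core against margin (0 without the margin of mouse 36 or the core of mouse 24 or 25) and 18 to 42 for primary tumor, where 1 tumor is then assumed to vary like the other groups. The median UMI difference of core and primary tumor was then -15367 to -7234.8 with an exact permutation p of 0.143 each, the smallest that 1 against 6 allows, and with every sample that held a cDC1 cell it was -14466 (exact permutation p = 0.0035, 3 against 10). Cd74 reversed to -0.099 between metastasis and distal normal tissue in samples of at least 2 cells. In primary tumor against lung, without mouse 10 or 38, Ifi27l2a ranged from -0.24 to 3.73, Plac8 from -2.72 to 3.68 and Nr4a3 from -1.68 to 5.49. Of 96 alternative values of named genes against other labels, 18 moved beyond the sample spread and none changed sign. The cause of these changes was not tested, beyond fewer samples or genes where the setting removes them.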

Other observations

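In the relapse-free mice 6 and 7, cells were also sorted by GFP. In mouse 6, cDC1 made 10 of 18 DCs in the CD45+ gate, 2 of 4 in the GFP-negative and 4 of 11 in the GFP-positive gate. In mouse 7 they made 11 of 18, 13 of 32 and 10 of 19. The gates were not tested. As percentages of DCs, the GFP-positive gate gave 36.4% in mouse 6 and 52.6% in mouse 7.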
